A study of Homo sapiens with 18 samples.

Results

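The 8 genes described here encode proteins of box C/D small nucleolar ribonucleoproteins (snoRNPs) and of the machinery that assembles them. They were chosen by symbol from a deposited table of 26372 gene symbols, and all 8 were found and passed the filter on low values. FBL, NOP56 and NOP58 are core proteins of the mature particle, and NUFIP1, RUVBL1, RUVBL2, PIH1D1 and RPAP3 act in assembly. SNU13, the remaining core protein, was kept in a list of related genes and is given with that list.

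Box C/D snoRNAs are short nucleolar RNAs that pair with ribosomal RNA and guide its 2'-O-methylation, while the U3 particle takes part in cleavage of the ribosomal RNA precursor. Assembly runs through intermediates that contain NUFIP1, ZNHIT3 and ZNHIT6 and that are later replaced or released as the mature particle forms. The R2TP complex, made of RUVBL1, RUVBL2, PIH1D1 and RPAP3, works with the chaperone HSP90 in this step and also in the assembly of RNA polymerases and of kinases related to phosphatidylinositol 3-kinase.

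The data are 18 RNA-seq libraries, depleted of ribosomal RNA, from SH-SY5Y, a cell line from a human neuroblastoma, a tumour of the sympathetic lineage, used as a source of neuron-like cells. Cells received lentivirus carrying ZNHIT3-WT, ZNHIT3-C14R or a ZNHIT3 deletion, and each construct was sampled at day 0 and day 18 with 3 libraries per group. The deletion is written as residues 251 to 254 in the series design and in the labels of replicate 1, but as 251 to 255 in replicate 2 and 251 to 256 in replicate 3, and these libraries are called the deletion libraries here. All groups carry a delivered ZNHIT3, so the WT construct is the reference and no uninfected cells enter any comparison. The constructs were built from FUGW, a lentiviral backbone with the human ubiquitin C promoter, and the labels do not say which promoter drives the insert or whether the endogenous gene was altered. Differentiation began 48 hours after infection, in serum-free medium with retinoic acid (10 µM), BDNF (50 ng/ml), dibutyryl cyclic AMP (2 mM) and KCl (20 mM). Nothing in the labels says that replicates came from separate cultures, so p-values measure the spread between these libraries, which may be technical.

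Values are FPKM, fragment counts divided by transcript length and sequencing depth, which allow levels of different genes to be set side by side. Sympathetic neuroblast markers were all present at both days, with summed levels of 897 to 961 FPKM at day 0 and 1150 to 1330 FPKM at day 18. ZNHIT3 averaged 538, 424 and 303 FPKM in the WT, C14R and deletion libraries of day 0 and 1150, 653 and 302 FPKM at day 18, and this total cannot be divided into delivered and endogenous RNA. Relative sequencing depth, read from the spacing of low values, was 59.1 to 84.6% of the deepest library at day 0 and 82.0 to 100% at day 18. The C14R library of day 18 labelled replicate 1 stood apart from the rest, as described with the GC content below. The snoRNA gene SNORD3A took between 1.01 and 58.6% of the summed FPKM of a library, so results are also given where rescaling without small RNA genes altered them.

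Promoter sequence is shown for FBL, RUVBL1 and RUVBL2, 3 members whose levels moved together between the days and for which RefSeq (GRCh38.p14) gives at least 100 unbroken bases free of annotated exons. Promoter windows were matched for 6 of the 8 members, in 8 windows. The sequences run 5' to 3' on the strand of the gene, and capitals mark matches to the motifs searched, on either strand. RUVBL1 has 2 windows, and the one shown lies before the start that falls inside the annotated gene span.
FBL (chr19:39846415-39846629, minus strand): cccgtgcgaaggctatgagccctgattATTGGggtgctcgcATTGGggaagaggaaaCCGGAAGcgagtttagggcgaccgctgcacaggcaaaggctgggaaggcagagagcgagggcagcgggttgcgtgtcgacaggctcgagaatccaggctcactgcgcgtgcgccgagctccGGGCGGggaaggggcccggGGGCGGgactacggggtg
RUVBL1 (chr3:128123825-128124062, minus strand): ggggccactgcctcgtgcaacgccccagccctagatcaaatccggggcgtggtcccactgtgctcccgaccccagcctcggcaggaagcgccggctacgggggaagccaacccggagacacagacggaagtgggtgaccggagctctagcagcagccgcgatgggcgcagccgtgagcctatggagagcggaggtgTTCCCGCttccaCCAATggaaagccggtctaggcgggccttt
RUVBL2 (chr19:48993311-48993447, plus strand): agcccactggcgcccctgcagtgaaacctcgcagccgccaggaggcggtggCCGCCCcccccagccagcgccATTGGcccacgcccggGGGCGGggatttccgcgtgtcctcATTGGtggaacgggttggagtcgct
The pentamer CCAAT was found in 7 of the 8 windows, counting the 250 bases before the start and both strands, against 32.0% of all 35116 windows. The hexamer GGGCGG was found in 6 of the 8 windows against 42.6% of all. The heptamer CCGGAAG occurred in the FBL window and in 8.52% of all windows. TTCCCGC occurred in 1 RUVBL1 window and in 5.52% of all, and TATAAA in the other RUVBL1 window and in 10.7% of all. The members' windows held no CACGTG (6.34% of all windows), no AGATGGC (3.34% of all) and no GCATGCG (3.39% of all). No match overlapped another motif in these windows, and a match is a description of letters, not a binding site.

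FBL, NOP56 and NOP58 fell between day 0 and day 18 in each of the 3 lines. FBL, the methyltransferase of the particle, fell furthest, to 26.8% of its day 0 mean in the WT libraries, 26.2% in C14R and 26.7% in the deletion. NOP56 and NOP58, paralogous scaffold proteins that bind the guide RNA and hold fibrillarin in place, fell to between 53.8 and 59.1% of their day 0 means. Among all 13785 genes tested, 72.2% passed the test between the days in WT, 72.9% in C14R and 73% in the deletion, so that a passed test alone is what most genes showed. The share that was lower in all 3 lines was 29.7%, and the libraries of the 2 days did not overlap for 75.7%, 71.8% and 77.7% of genes in WT, C14R and the deletion.

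FBL lies on chromosome 19, 39834458 to 39846414 on the minus strand (GRCh38), and overlaps no other annotated exon. At day 0 its level was 93.9, 90.3 and 95.3 FPKM in the WT libraries, 94.6, 93.8 and 88.9 in C14R, and 95.1, 98.0 and 93.4 in the deletion. At day 18 it was 30.5, 24.9 and 19.3 FPKM in WT, 24.3, 23.0 and 25.4 in C14R, and 26.8, 23.9 and 25.9 in the deletion. Every day 18 library was below every day 0 library, and the spread was widest among the WT libraries of day 18, with a coefficient of variation of 22.4%. The log2 change of FPKM + 1 was -1.88 ± 0.10 (SE) in WT, -1.89 in C14R and -1.86 in the deletion, with limma adjusted p-values of 1.87e-11, 1.83e-11 and 2.08e-11. Of all tested genes in WT, 1.4% had a change as low or lower, and the level of FBL went from the 95.6th to the 77.7th percentile of tested genes.

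NOP56 lies on chromosome 20, 2652145 to 2658393 on the plus strand. Its day 0 levels were 53.1, 52.5 and 56.2 FPKM in WT, 50.8, 51.9 and 54.3 in C14R, and 51.7, 52.1 and 52.8 in the deletion libraries. Its day 18 levels were 30.1, 29.4 and 27.6 FPKM in WT, 28.0, 28.7 and 28.7 in C14R, and 31.6, 28.9 and 30.8 in the deletion libraries. The days did not overlap in any line. The log2 change was -0.87 ± 0.0428 in WT, -0.86 in C14R and -0.76 in the deletion, with limma adjusted p-values of 6.29e-12, 8.26e-12 and 4.05e-11. Its processed pseudogenes NOP56P1, NOP56P2 and NOP56P3 have no rows in the table, so how reads shared with them were counted is uncertain.

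NOP58 lies on chromosome 2, 202265716 to 202303666 on the plus strand. It stood at 53.4, 54.3 and 52.9 FPKM in the WT libraries of day 0, at 55.1, 49.3 and 54.1 in C14R and at 50.2, 49.6 and 53.2 in the deletion. By day 18 it stood at 31.5, 30.8 and 32.7 FPKM in WT, 33.4, 28.1 and 28.9 in C14R and 28.1, 29.1 and 29.7 in the deletion. All 9 libraries of day 18 were below all 9 of day 0. The log2 change was -0.74 ± 0.0566 in WT, -0.79 in C14R and -0.80 in the deletion, with limma adjusted p-values of 2.49e-09, 1.03e-09 and 9.28e-10. NOP56 and NOP58 host snoRNAs within their spans; 8 of these have rows, each at 0 throughout, so the guide RNAs made from these 2 genes could not be set beside their hosts.

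**Figure D1:**
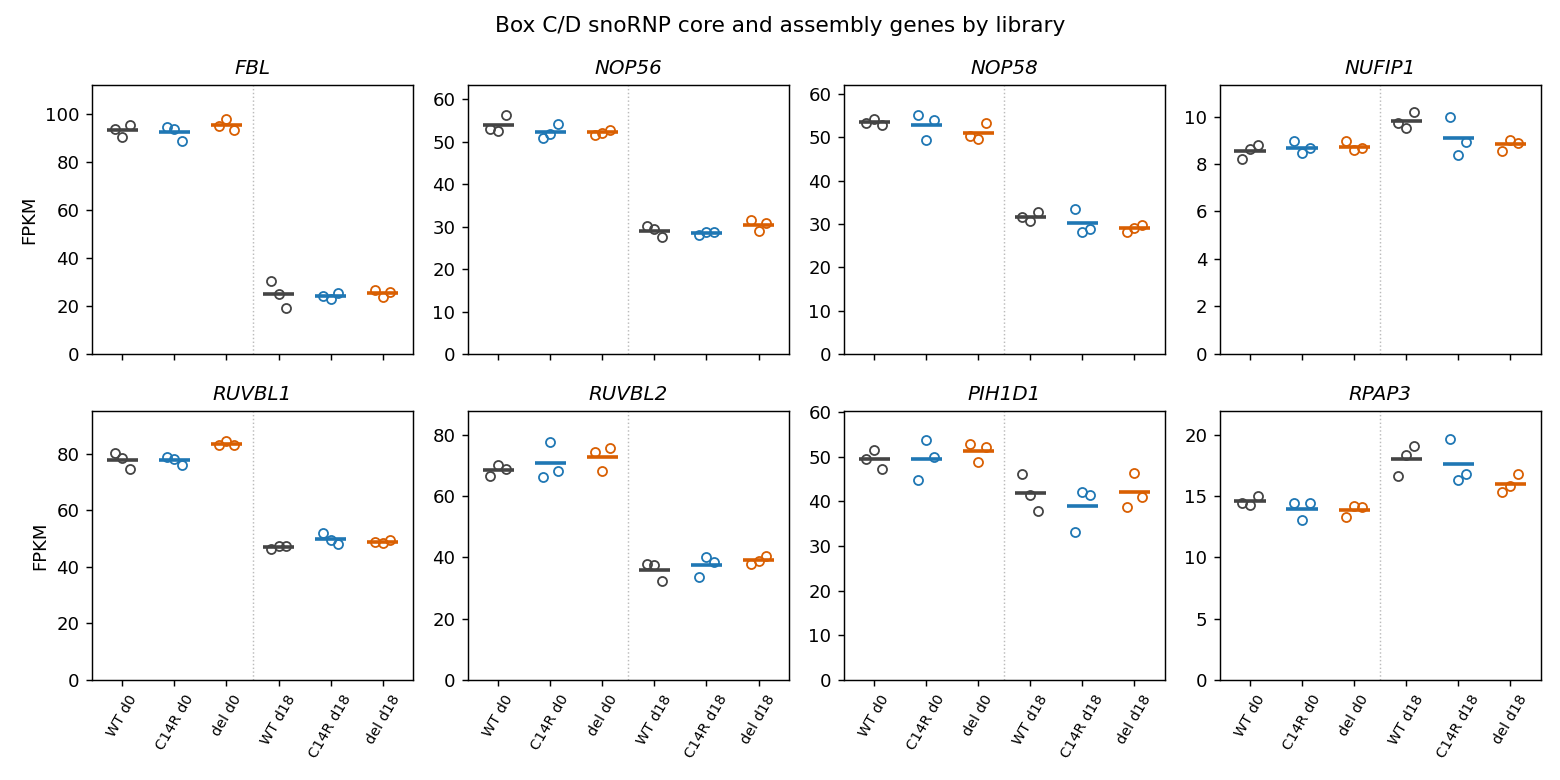
FPKM of each of the 8 genes (vertical axes, each from 0) in the 6 groups (horizontal axis, d0 and d18 for the days, del for deletion). Points are libraries and bars are means of 3 libraries. FBL drops from between 88.9 and 98.0 to between 19.3 and 30.5 FPKM, while NUFIP1 stays between 8.21 and 10.2 FPKM.

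The assembly proteins did not move as one. RUVBL1 and RUVBL2, related AAA+ ATPases that form a shared ring, fell in all 3 lines. PIH1D1, the adaptor that binds phosphorylated clients, fell by less. RPAP3, the scaffold that binds HSP90 through its tetratricopeptide repeats, rose in all 3 lines, and NUFIP1, the assembly factor that pairs with ZNHIT3, rose in WT and did not pass the test in C14R or the deletion. In WT, 8 of the 8 members passed, 2 higher and 6 lower, where 38.2% of all tested genes were higher and 34% lower. In C14R 7 of 8 passed, 1 higher and 6 lower (37.9% and 35% of all), and in the deletion also 7 of 8, 1 higher and 6 lower (38.6% and 34.4% of all).

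RUVBL1 lies on chromosome 3, 128064778 to 128153914 on the minus strand. Its day 0 levels were 80.2, 78.3 and 74.4 FPKM in WT, 78.8, 78.0 and 75.9 in C14R, and 82.9, 84.5 and 83.1 in the deletion. At day 18 they were 46.3, 47.2 and 47.4 FPKM in WT, 52.1, 49.3 and 47.9 in C14R, and 48.6, 48.3 and 49.3 in the deletion. The days did not overlap in any line. On the log2 scale the change was -0.71 ± 0.0364 in WT, -0.63 in C14R and -0.76 in the deletion (limma adjusted p = 1.08e-11, 5.99e-11 and 3.97e-12). Its exons share 344 bases with SEC61A1 and 370 with EEFSEC on the opposite strand, and the counting is not stated to use strand. SEC61A1 itself averaged 67.6 FPKM in WT at day 0 and 45.2 at day 18.

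RUVBL2 lies on chromosome 19, 48993448 to 49015995 on the plus strand. It stood at 66.6, 70.1 and 68.7 FPKM in the WT libraries of day 0, 66.3, 77.5 and 68.2 in C14R, and 74.5, 68.2 and 75.8 in the deletion. The day 18 libraries had 37.9, 37.4 and 32.4 FPKM in WT, 33.7, 40.0 and 38.6 in C14R, and 37.9, 38.9 and 40.3 in the deletion. Again the days were fully apart. The log2 change was -0.92 ± 0.0713 in WT, -0.90 in C14R and -0.88 in the deletion (limma adjusted p = 3.13e-09, 4.01e-09 and 5.1e-09).

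PIH1D1 lies on chromosome 19, 49446298 to 49453497 on the minus strand, with 152 exonic bases shared with ALDH16A1 on the opposite strand. Its levels were 49.4, 51.5 and 47.3 FPKM in WT at day 0, 44.7, 53.7 and 49.9 in C14R, and 52.7, 48.7 and 52.1 in the deletion. At day 18 it had 46.1, 41.5 and 37.8 FPKM in WT, 33.1, 42.0 and 41.4 in C14R, and 38.8, 46.4 and 41.0 in the deletion. Within each line the days did not overlap, although the highest day 18 values reached the lowest of day 0 in another line. The log2 change was -0.24 ± 0.0916 in WT, -0.35 in C14R and -0.28 in the deletion (limma adjusted p = 0.0268, 0.00271 and 0.0113). These calls were lost in all 3 lines when small RNA genes were left out and the libraries rescaled, with changes of -0.0349, -0.163 and -0.0626 (adjusted p = 0.721, 0.0931 and 0.516). The WT call was also lost without WT day 0 replicate 1 or 2 or WT day 18 replicate 2 or 3 (changes of -0.24, -0.21, -0.236 and -0.171, adjusted p between 0.0558 and 0.132), and the deletion call without deletion day 18 replicate 1 (-0.224, adjusted p = 0.0591).

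RPAP3 lies on chromosome 12, 47661249 to 47706061 on the minus strand. It was at 14.4, 14.3 and 15.0 FPKM in the WT libraries of day 0, 14.4, 13.0 and 14.4 in C14R, and 13.3, 14.2 and 14.1 in the deletion. At day 18 it was at 16.6, 18.3 and 19.1 FPKM in WT, 19.6, 16.3 and 16.8 in C14R, and 15.3, 15.8 and 16.8 in the deletion. All day 18 libraries were above all day 0 libraries. The log2 change was 0.29 ± 0.0663 in WT, 0.31 in C14R and 0.19 in the deletion (limma adjusted p = 0.00091, 0.000425 and 0.0144), and 33.3% of all tested genes were higher in all 3 lines. The deletion call was lost under median-of-ratios scaling (0.142, adjusted p = 0.0677), without deletion day 0 replicate 1 (0.169, adjusted p = 0.0569) and without deletion day 18 replicate 3 (0.16, adjusted p = 0.0659).

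NUFIP1, the lowest of the members, lies on chromosome 13, 44939249 to 44989483 on the minus strand. It had 8.21, 8.64 and 8.82 FPKM in WT at day 0, 8.95, 8.46 and 8.66 in C14R, and 8.96, 8.58 and 8.67 in the deletion. At day 18 it had 9.74, 9.5 and 10.2 FPKM in WT, 9.98, 8.36 and 8.94 in C14R, and 8.54, 9.03 and 8.9 in the deletion. The WT libraries of the 2 days were apart and those of the other lines overlapped. The log2 change was 0.18 ± 0.0574 in WT (limma adjusted p = 0.0102), 0.06 in C14R (adjusted p = 0.391) and 0.01 in the deletion (adjusted p = 0.855). The difference between lines was itself tested and did not pass: the interaction of line and day was -0.12 for C14R (adjusted p = 0.911) and -0.17 for the deletion (adjusted p = 0.695). Scaling bore on these calls, since the WT change under median-of-ratios scaling was 0.132 (adjusted p = 0.0541), and after rescaling without small RNA genes the changes in C14R and the deletion were 0.224 and 0.211 (adjusted p = 0.00324 and 0.00491). NUFIP1P, a processed pseudogene, has no row in the table.

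**Figure D2:**
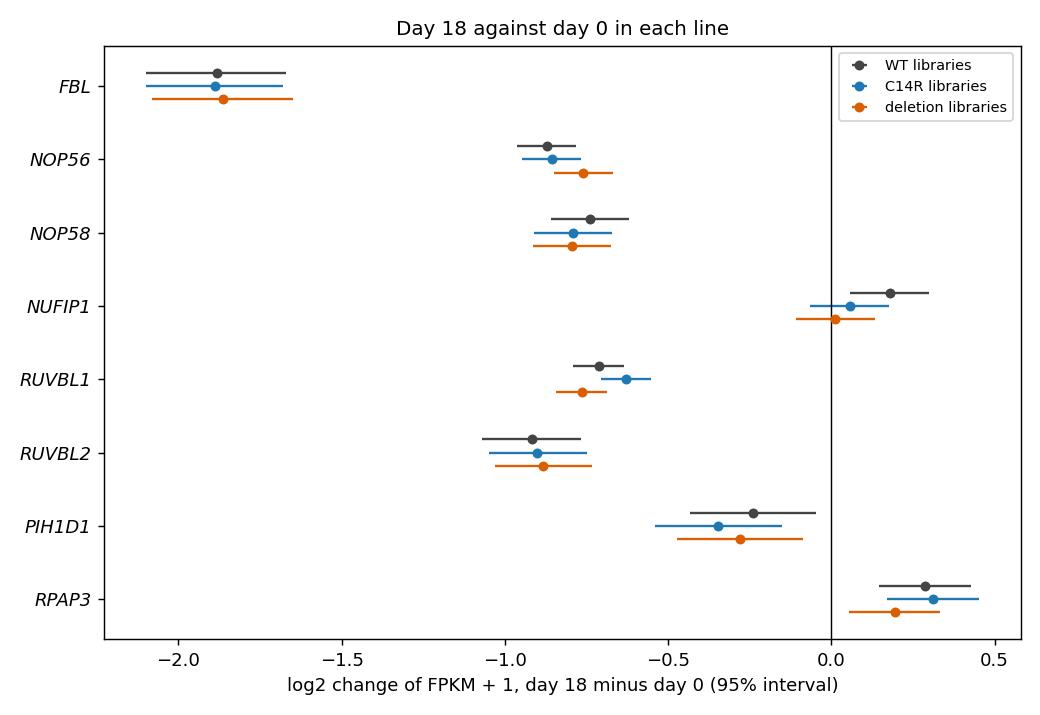
Log2 change of FPKM + 1 from day 0 to day 18 (horizontal axis) for each gene (vertical axis) in the WT, C14R and deletion libraries, as points with 95% intervals from limma, 3 libraries per group. FBL lies near -1.9 in all 3 lines, NOP56, NOP58, RUVBL1 and RUVBL2 between -0.92 and -0.63, PIH1D1 between -0.35 and -0.24, and RPAP3 to the right of 0.

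With these unequal changes the order of the members differed between the days. At day 0 the median levels over 9 libraries ran from FBL (93.9 FPKM) through RUVBL1 (78.8), RUVBL2 (68.7), NOP58 (53.2), NOP56 (52.5) and PIH1D1 (49.9) to RPAP3 (14.3) and NUFIP1 (8.66). NOP58, NOP56 and PIH1D1 overlapped in range at that day, as did RUVBL1 and RUVBL2, although RUVBL1 was above RUVBL2 in 9 of 9 libraries. At day 18 RUVBL1 led with 48.3 FPKM, followed by PIH1D1 (41.4), RUVBL2 (37.9), NOP58 (29.7), NOP56 (28.9), FBL (24.9), RPAP3 (16.8) and NUFIP1 (9.03). Neighbours down to RPAP3 overlapped in range at day 18, and RPAP3 was above NUFIP1 in 9 of 9 libraries without overlap.

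Ratios between partner subunits within a library do not depend on how libraries are scaled, and 4 of them were tested by an exact two-sided permutation test in which day labels were exchanged within each construct (8000 relabelings, smallest possible p 0.00025). The ratio of NOP56 to NOP58 was 1.00 in median at day 0 (0.923 to 1.06) and 0.99 at day 18 (0.837 to 1.12). Its mean log2 difference between the days was -0.055 (exact permutation p = 0.2675, adjusted over 4 ratios 0.268). The lines differed in direction: 2 of 3 went this way, while in the deletion the mean log2 ratio went from 0.034 to 0.0714. These paralogs thus fell by amounts that the test did not separate, which does not show that they were equal.

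The ratio of NOP56 to FBL went from a median of 0.565 (0.531 to 0.611) to 1.18 (0.987 to 1.43), with no overlap between the days. Its mean log2 difference was 1.07 (exact permutation p = 0.00025, adjusted 0.0005), in the same direction in all 3 lines. RUVBL1 to RUVBL2 went from 1.11 (1.01 to 1.24) to 1.24 (1.22 to 1.55), a mean log2 difference of 0.204 (exact permutation p = 0.0005, adjusted 0.000667), and here the ranges of the days overlapped. The highest day 18 value of this ratio came from C14R replicate 1, and the difference without that library was 0.168. PIH1D1 to RPAP3 went from 3.46 (3.11 to 4.14) to 2.47 (1.69 to 2.93), a mean log2 difference of -0.576 (exact permutation p = 0.00025, adjusted 0.0005), with no overlap between the days. Partners can differ in the GC content of their transcripts, as PIH1D1 (59.9%) and RPAP3 (36.7%) do. A ratio is not free of the GC trends of libraries described below. The ratios were not tested with those trends removed.

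**Figure D3:**
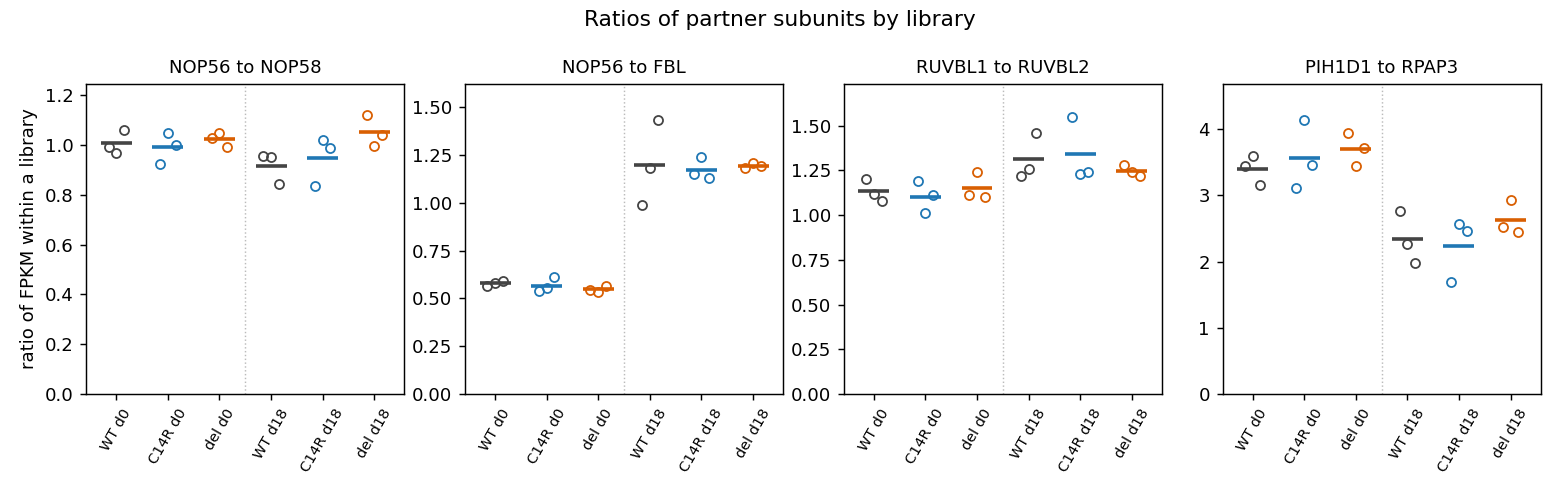
Ratios of FPKM within a library (vertical axes, each from 0) for 4 pairs of partner subunits in the 6 groups (horizontal axis). Points are libraries and bars are means of 3 libraries. NOP56 to FBL rises from a median of 0.565 to 1.18, PIH1D1 to RPAP3 falls from 3.46 to 2.47, and NOP56 to NOP58 lies around 1 on both days.

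Neither ZNHIT3 variant was accompanied by a called change in any member at either day. Against WT, 0 of 8 members passed the test for C14R at day 0, where 0 of all tested genes passed by limma (388 at an unadjusted p under 0.05), and 0 of 8 for the deletion at day 0, where 0.029% of all passed. At day 18, again 0 of 8 passed for C14R (background 0.0363%) and for the deletion (background 0.0725%). The same count of 0 of 8 held for each variant against WT over both days (backgrounds 0.0218% and 0.00725%), for C14R against the deletion at day 0 (0.058%) and at day 18 (0.029%), and for the interactions of C14R and of the deletion with day (0 and 0.0145%). With so few genes passing in these comparisons, a count of 0 among 8 is near the background and is read against the intervals below.

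For FBL the change from WT lay between -14.3 and 14.9% for C14R at day 0, between -14.6 and 14.5% for C14R at day 18, and between -10.3 and 20.3% for the deletion at day 18, as 95% intervals on the scale of FPKM + 1. NOP56 was better bounded, at -7.91 to 4.4% for C14R and -1.72 to 11.4% for the deletion at day 18. PIH1D1 had wide intervals, from -18.9 to 6.12% for C14R and from -12 to 15.1% for the deletion at day 18. Some intervals, which are not adjusted for the number of genes tested, left out 0. For the deletion at day 18 they were -18.8 to -1.37% for RPAP3, -16.5 to -1.23% for NUFIP1 and -15.6 to -0.381% for NOP58. RUVBL1 had 1.95 to 13.4% for the deletion at day 0 and 0.349 to 11.6% for C14R at day 18. A missed threshold does not show that a level was the same. These intervals give the sizes of change that the 3 libraries per group leave possible.

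The member with the smallest unadjusted p was RUVBL1 in the deletion. Over both days it was 5.62% higher than in WT (log2 0.08, unadjusted p = 0.00719, limma adjusted p = 0.348), and at day 0 the 3 deletion libraries, at 82.9 to 84.5 FPKM, lay above the 3 WT libraries, at 74.4 to 80.2 FPKM. SEC61A1, which overlaps it on the opposite strand, was at 69.8 to 74.8 FPKM in those deletion libraries and 65.9 to 68.5 FPKM in those WT libraries, and its part in the RUVBL1 values was not tested. At day 18 NUFIP1, the partner of ZNHIT3, was at 8.54 to 9.03 FPKM in the deletion and 9.5 to 10.2 FPKM in WT, a log2 difference of -0.14 (adjusted p = 0.37). NOP58 differed by -0.13 (adjusted p = 0.416) and RPAP3 by -0.16 (adjusted p = 0.373) in the same comparison.

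Libraries of 2 groups that do not overlap were common over the whole table. Between the deletion and WT at day 18, NOP58 and NUFIP1 were lower and RUVBL1 and RUVBL2 higher without overlap, 4 of 8 members, and 18.9% of all tested genes were apart in this way. At day 0 RUVBL1 was higher and RPAP3 lower, 2 of 8 against 18% of all. Between C14R and WT, 1 of 8 members (RUVBL1, higher) was apart at day 18 against 11.1% of all, and 0 of 8 at day 0 against 9.47% of all. Between C14R and the deletion, RUVBL1 was lower in C14R at day 0 (1 of 8 against 21.3% of all) and NOP56 at day 18 (1 of 8 against 12.2%). Exact permutation over 3 libraries against 3 cannot give a p below 0.1, so such a separation of 1 gene carries no call.

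**Figure D4:**
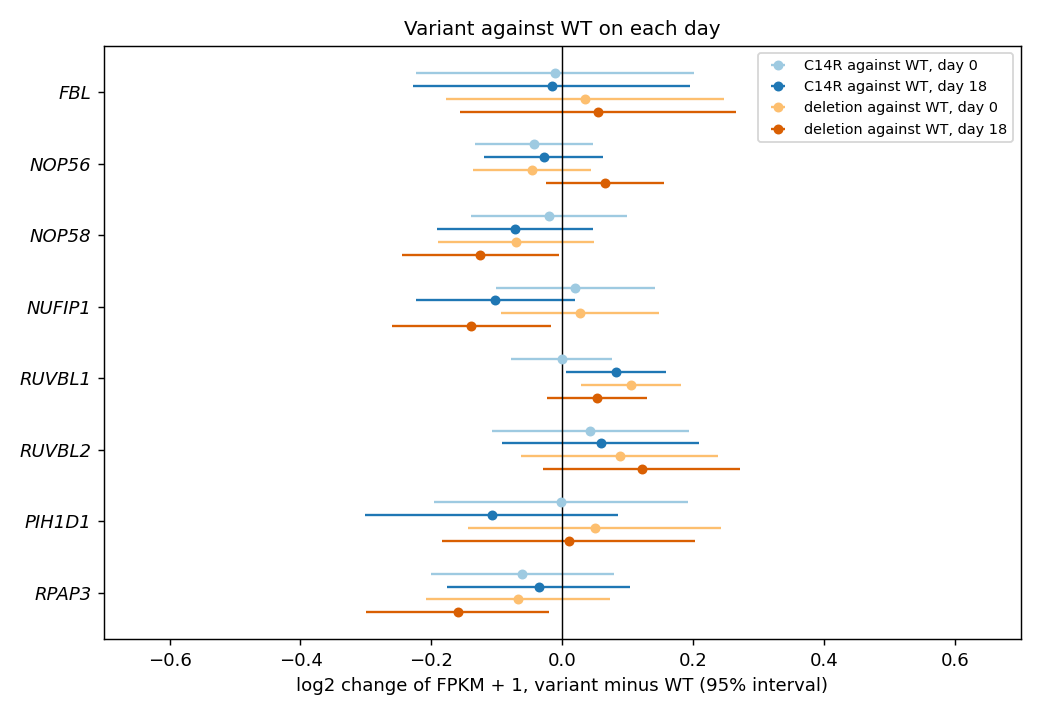
Log2 change of FPKM + 1 of each variant against WT (horizontal axis) for each gene (vertical axis), on day 0 and day 18, as points with 95% intervals from limma, 3 libraries per group. The points lie between -0.16 and 0.12, and no change passed the adjusted threshold.

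Among related genes, proteins of the box C/D, U3 and box H/ACA particles were mostly lower at day 18. Of the 5 tested genes of the box C/D core and early assembly that are not members, 4 were lower in all 3 lines: C12orf45 (WT log2 change -0.46), SNU13, the core protein that binds the kink-turn (-0.29), TAF9 (-0.27) and ZNHIT6, an assembly factor (-0.20). The fifth, ZNHIT3, is the delivered gene. The median of these 5 genes in WT was -0.274, against 0.0262 for all tested genes. After rescaling without small RNA genes 0 of these were lower in WT, 1 in C14R and 2 in the deletion, so this direction depends on the scaling.

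All 6 tested proteins of the U3 particle were lower in all 3 lines, led by RRP9, which binds the U3-specific motif (-0.92), IMP4 (-0.61), IMP3 (-0.50) and UTP11L (-0.48), with a WT median of -0.491. Of 9 genes of snoRNA maturation and transport, 6 were lower in all 3 lines, among them COIL, the marker protein of Cajal bodies (-0.96), TCOF1, a nucleolar phosphoprotein (-0.89), TGS1, which hypermethylates the cap of snoRNAs (-0.76), and NCBP1, a subunit of the nuclear cap-binding complex (-0.45). Of the 6 box H/ACA proteins, 5 were lower in all 3 lines, including GAR1 (-1.49), the pseudouridine synthase DKC1 (-1.13), NHP2 (-0.85) and the assembly factor NAF1 (-0.56). Rescaling without small RNA genes left the counts of lower genes in these 3 lists within 1.5 times in every line, although 2 to 3 genes of snoRNA maturation and transport then counted as higher, where 0 had.

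Partners of the R2TP complex were divided. Of 13 tested, 4 were lower in all 3 lines, including UXT (-0.62), the polymerase subunit POLR2E (-0.30) and the prefoldin subunit PFDN2 (-0.28), and 1 was higher, SPAG1 (0.90), which carries an RPAP3-like domain and acts in dynein arm assembly. The WT median of the list was -0.0537. The PIKK stability partners had 6 of 9 genes lower in all 3 lines, among them the DNA-dependent protein kinase PRKDC (-1.09), TELO2 (-0.80), TTI2 (-0.58) and ATR (-0.35). Of 28 subunits of chromatin complexes that contain RUVBL1 and RUVBL2, 9 were lower and 3 higher in all 3 lines, with INO80C (-0.73), MCRS1 (-0.66) and ACTL6A (-0.42) lower and ACTR8 (0.47) higher. Over all tested genes 29.7% were lower and 33.3% higher in all 3 lines, so the counts of lower genes among the R2TP partners and the chromatin subunits are near the background. Their counts of higher genes, 1 of 13 and 3 of 28, are below it. These 3 lists also moved with the scaling: without small RNA genes, lower genes in WT numbered 1 of the R2TP partners (4 before), 5 of the PIKK partners (8 before) and 5 of the chromatin subunits (9 before), and 12 chromatin subunits were higher (4 before). Apart from ZNHIT3, 0 genes of these lists passed in a comparison of constructs.

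Summed markers of other cell states moved with the day in the same libraries. Markers of proliferating cells went from between 436 and 482 FPKM to between 154 and 203 FPKM, with 10 of 10 above 1 FPKM on both days. Markers of neuron maturation went from between 1060 and 1100 to between 2310 and 2520 FPKM, 11 of 11 above 1. Markers of mesenchymal-type cells went from between 355 and 409 to between 37.4 and 53.1 FPKM, with PRRX1 listed at 0 in WT at day 18. Glial markers stayed between 3.12 and 9.16 FPKM with 2 of 5 above 1. Their part in the members' changes was not tested, and in bulk RNA fewer cells of a type and less RNA per cell cannot be told apart.

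The genes whose pattern over the 18 libraries was most like the mean of FBL, NOP56 and NOP58, out of 7204 compared, were KPNA2 and SRSF2 (Pearson r = 0.998) and HNRNPK, RPSA and KDM1A (0.997). For the mean of RUVBL1 and RUVBL2 they were RPS2, TBX2, NOC2L, MMP2 and GLTSCR2 (0.996). For NUFIP1 they were MIER1 (0.891), KIAA1033 (0.872), CNOT10 (0.851), FAM92A1 (0.848) and TMED7 (0.844). For the mean of PIH1D1 and RPAP3, which moved apart, the nearest included COMMD3 (0.788), TOMM34 (0.779), COX16 (0.725) and UNC50 (0.714). The first principal component, which separates the days, held 86.9% of the variance, so the libraries share the day in all of these values.

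After the group means were subtracted, some members deviated together, and these are given beside the GC content of their transcripts. RPAP3, NUFIP1 and NOP58 have 36.7%, 38.7% and 41.3% GC, RUVBL1, NOP56 and FBL have 51.3%, 54.3% and 57.8%, and PIH1D1 and RUVBL2 have 59.9% and 60.2%. The deviations of RUVBL2 and PIH1D1 correlated with r = 0.821 over the 18 libraries, those of NOP58 and RPAP3 with 0.808, and those of NOP58 and NUFIP1 with 0.793. In contrast PIH1D1 and RPAP3, both of R2TP, gave -0.786, and RUVBL1 and RUVBL2 gave -0.445. RUVBL1, NOP56 and FBL formed no such set. FBL and NOP56 gave 0.597, but RUVBL1 gave -0.52 with NOP56 and -0.166 with FBL, and 0.469 with NOP58 and 0.418 with RPAP3. FBL, at the 76.7th percentile of GC content among tested genes, gave only 0.254 with PIH1D1 and 0.382 with RUVBL2. These values describe 18 libraries that differ in how far their levels follow GC content.

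C14R day 18 replicate 1 was the library in which this was plainest. Across 12934 tested genes its deviation from the group mean correlated with GC content at r = -0.612, and on the second principal component it lay at 24.8 where the other 17 lay between -8.3 and 9.3. In it RPAP3 was 0.15 above its group mean on the log2 scale, NOP58 0.15 and NUFIP1 0.13 above, while RUVBL2 was 0.14 and PIH1D1 0.22 below. The deviations of RUVBL1, NOP56 and FBL in it were 0.0658, -0.0233 and 0.00356, so in this library FBL did not follow PIH1D1 and RUVBL2. C14R day 18 replicates 2 and 3, which share its group mean, gave correlations of 0.456 and 0.368, and WT day 18 replicates 1 and 3 gave 0.312 and -0.313. In WT day 18 replicates 1 and 3 FBL deviated by 0.305 and -0.327. These had the signs of PIH1D1 (0.143 and -0.136) and RUVBL2 (0.0798 and -0.14). In deletion day 18 replicates 1 and 2 FBL (0.0688 and -0.0879) and PIH1D1 (-0.111 and 0.141) had opposite signs. With the GC trend of each library removed, the day changes of RPAP3 were 0.206, 0.249 and 0.125 in WT, C14R and the deletion (limma adjusted p = 0.000194, 2.76e-05 and 0.01), those of PIH1D1 were -0.219, -0.298 and -0.274 (0.00395, 0.000306 and 0.000657), and that of NUFIP1 in WT was 0.108 (0.0306). Without C14R day 18 replicate 1, the C14R change was 0.236 for RPAP3 (adjusted p = 0.00228), -0.237 for PIH1D1 (0.019) and -0.00625 for NUFIP1 (0.921).

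**Figure D5:**
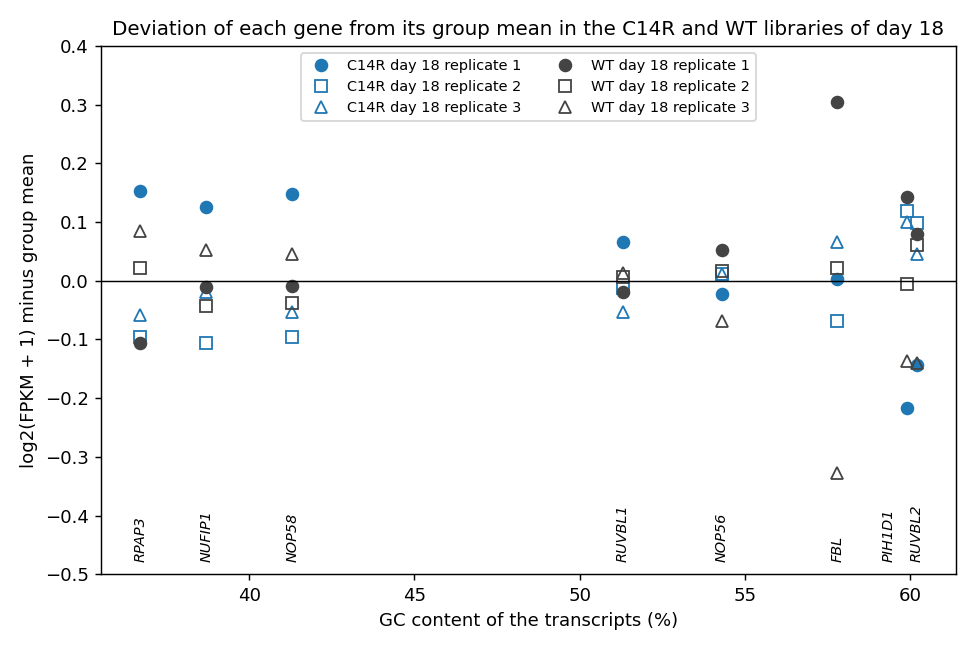
Deviation of log2(FPKM + 1) from the group mean (vertical axis) for the 8 genes, placed by the GC content of their transcripts in percent (horizontal axis), in the C14R and WT libraries of day 18. Each symbol is 1 library. C14R replicate 1 (filled blue) runs from 0.15 for RPAP3 at 36.7% GC to -0.22 for PIH1D1 at 59.9% GC, with FBL at 0.00356 at 57.8% GC. FBL in WT spreads most.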

How the data were processed

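RNA-seq was made from 18 libraries of SH-SY5Y cells in 6 groups of 3. The authors deposited 1 table of FPKM per gene symbol. TopHat2, STAR and Cufflinks 2.2.1 and the build hg38 are named per the submitters' processing notes, with no role or order, and the annotation is not given in the sources used here. Counts were not used here. Relative depth was read from the spacing of low values.

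The table has 26372 symbols, of which 4960 are at 0 throughout. The 13785 symbols whose mean over all libraries reached 1 FPKM were tested. Values were analysed as log2(FPKM + 1), a scale on which the changes of low genes are understated. limma 3.58.1 in R 4.3.3 fitted 6 group means with a mean-variance trend, two-sided, with Benjamini-Hochberg adjustment over all genes tested and a threshold of 0.05, in 13 comparisons. All comparisons with WT share the WT libraries. The log2 ratios of 4 pairs of members were tested by exact permutation of day labels within construct, with Benjamini-Hochberg adjustment over the 4. The script was tested on simulated data. Gene positions and GC content are from GENCODE on GRCh38, and promoters from RefSeq.

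All 8 members and ZNHIT3 are named; from each list of related genes, up to 4 with the largest change in WT among those called in the same direction in all 3 lines, and any called between constructs; and the 5 genes most alike in pattern with a mean FPKM of at least 10, of which 1 is not reported here. The members and lists were chosen with earlier results of these data known. Alternatives were another pseudocount, filters, scalings, weights, fits and left-out libraries. Removal of GC trends, and leaving out C14R day 18 replicate 1 where it is in neither group compared, were added after seeing the data.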

Additional observations from a re-analysis of the deposited data

Results flagged for a closer look

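ZNHIT3, the delivered gene and a partner of NUFIP1, was the only gene here whose effect of day differed between lines by a test of the difference itself. Its log2 change from day 0 to day 18 was 1.1 in the WT libraries and -0.005 in the deletion libraries. The difference was -1.1 (limma interaction term, adjusted p = 1.1e-05). The 3 deletion libraries were below all 3 WT libraries at day 18, but also at day 0 (292 to 310 against 531 to 542 FPKM). This separation therefore does not bear on the interaction. None of the 8 snoRNP genes passed the interaction test, where 0.0145% of all tested genes did.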

How the results depend on the processing

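The 80 tested changes of the 8 genes between constructs, or in the interaction with day, kept their side of the threshold in all 1680 alternative values, with a lowest adjusted p of 0.0859, and the 4 ratios did so in all 76. For the ratios the alternatives were a pseudocount and left-out libraries, and removal of the GC trend was not among them. Of 448 alternative values of the day changes, 434 did; the 14 others concern NUFIP1, PIH1D1 and RPAP3 and stand with those genes. Requiring an absolute log2 change of at least 0.5 left 5 of 8 members called between the days in WT, and also 5 in C14R and in the deletion. The day change of ZNHIT3 in the deletion, -0.005, was 0.221 under quantile normalization (adjusted p = 0.0146) and 0.216 with small RNA genes left out (adjusted p = 0.00545). Under that rescaling the WT median over all genes was 0.21 in place of 0.026, and 68.7% of called genes were higher in place of 52.9%; the cause was not tested.

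The replicate block left the member counts at 8, 7 and 7 between the days and 0 elsewhere, and moved the count over all genes for the deletion against WT at day 18 from 10 to 6. After the group means were subtracted, same-numbered libraries of different groups correlated between -0.363 and 0.168 (45 pairs). By the mean of these correlations 2 of 18 libraries were closest to their own number, so the numbers give no pairing. Counts over all genes moved widely. For C14R against WT at day 18 the count of 5 ranged from 2 to 205 (array weights), and was 126 without C14R day 18 replicate 2; for the deletion at day 18 the count of 10 ranged from 2 to 95, and for C14R against the deletion at day 0 the count of 8 from 1 to 95. The remaining counts ranged from 0 to 2 (C14R, day 0), 1 to 5 (deletion, day 0), 1 to 4 and 1 to 9 (over both days), 2 to 13 (C14R against the deletion, day 18), 0 to 4 and 1 to 6 (interactions). Between the days, a log2 change of at least 0.5 left 5351, 5473 and 5433 of the 9946, 10044 and 10060 genes called. With 3 libraries per group, differences of a few percent between constructs are below what these data resolve.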

Other observations

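FBLL1, a paralog of FBL, belongs to none of the lists and was singled out with its values known. It lies on chromosome 5, 168529116 to 168530634 (GRCh38), and its annotated transcripts share 0 sequences of 31 bases with those of FBL. At day 0 it was at 8.14, 7.3 and 8.0 FPKM in WT, 8.45, 9.7 and 8.42 in C14R, and 10.3, 6.71 and 8.05 in the deletion. At day 18 it was at 27.0, 22.3 and 20.0 FPKM in WT, 17.3, 23.4 and 20.4 in C14R, and 25.5, 25.5 and 23.2 in the deletion. It rose while FBL fell, with log2 changes of 1.44, 1.11 and 1.48 in the 3 lines, each past the threshold of limma over all genes tested. Of all tested genes 33.3% were also higher in all 3 lines, and for a gene picked by its values a passed threshold adds no support. The group means of FBLL1 at day 18, 23.1, 20.4 and 24.7 FPKM, stood beside FBL means of 24.9, 24.3 and 25.5 FPKM, where at day 0 FBL had been at 93.2, 92.5 and 95.5 FPKM. FBLL1 did not pass the test between constructs.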
